A study of Mus musculus with 6 samples.

Results

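Neutrophils leave the marrow loaded with granules, and the genes that fill those granules are among the most strongly transcribed of any marrow cell. The set described here was 10 of these genes, S100a8, S100a9, Ngp, Camp, Ltf, Elane, Mpo, Prtn3, Cd177 and Mmp8, taken by name from the 54532 genes of the deposited tables and followed in 6 RNA-seq libraries of cultured mouse marrow cells. The set was drawn up to look for neutrophil transcripts left in adherent marrow cultures. The libraries did not hold that pattern: S100a9, Ngp and Ltf had no read in any library, Elane had 1 read in all, and the 10 genes together took 796 of 104863856 counts. They are therefore called the granule genes below, and no cell type is attached to them.

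Granule genes switch on in order as a neutrophil matures. The promyelocyte makes the primary (azurophil) granules with the serine proteases neutrophil elastase (Elane) and proteinase 3 (Prtn3) and with myeloperoxidase (Mpo), which turns hydrogen peroxide and chloride into hypochlorous acid. The later myelocyte and metamyelocyte make the specific granules, which hold lactoferrin (Ltf), the cathelicidin precursor (Camp), its relative neutrophilic granule protein (Ngp), the neutrophil collagenase (Mmp8) and the surface protein Cd177. S100a8 and S100a9 encode the subunits of calprotectin, a calcium- and zinc-binding protein of the cytosol that is very abundant in mature neutrophils.

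The cells were wild-type mouse bone marrow mesenchymal stem cells (mBMSCs), marrow cells that adhere to plastic and can form bone. All 6 cultures spent 7 days in osteogenic medium, which per the labels contained dexamethasone at 100 nM, ascorbic acid at 50 μg/mL and β-glycerophosphate at 10 mM; the dexamethasone concentration given in the study's methods is lower. In 3 cultures (Ni) nickel was present at 0.1 μM as NiCl2, and 3 (control) were kept in that medium alone. The labels call the cultures biological replicates but do not say whether each came from a separate animal, so p-values measure the spread between these cultures. The libraries held from 16101033 to 18642504 counts, at which a gene with 0 counts could have a level of up to 0.161 to 0.186 CPM (counts scaled to library depth), the level of 3 counts. Control replicate 3 stood apart from its group: over all genes, chi-square per degree of freedom was 40.5 and 43.6 between it and the other controls, against 9.96 to 14.6 between it and the Ni libraries. Granule gene results that turn on it are given with and without it.

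The labelled cell type was checked against marker genes. All 10 stromal genes had counts, and 9 of them averaged above 1 FPKM (reads scaled to gene length and library depth). Together the 10 took from 1.15% to 3.08% of the counts of a library. Col1a1, a chain of type I collagen, reached from 682 to 2185 FPKM. All 15 macrophage genes also averaged above 1 FPKM, led by Lyz2, lysozyme M, at 7255 to 11360 FPKM, and together took from 2.88% to 3.44% of the counts of a library. The granule genes took from 0.000547% to 0.00113%. Stromal and macrophage markers were thus both present, and in bulk RNA fewer cells of a type and less RNA per cell cannot be told apart.

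**Figure D1:**
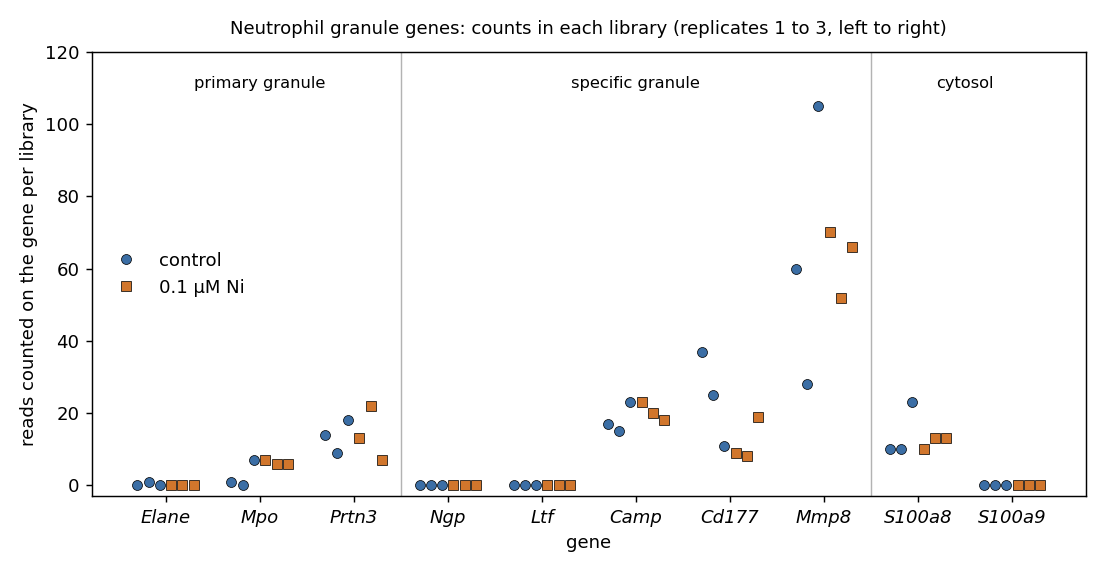
Reads counted on each of the 10 granule genes (vertical axis, linear) in the 3 control libraries (circles) and the 3 Ni libraries (squares), replicates 1 to 3 from left to right. Ngp, Ltf and S100a9 are at 0 in all 6 libraries, and the highest value is 105 counts for Mmp8 in control replicate 3.

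Whether a granule gene was detected differed between close partners. The sequence just upstream of a pair of such partners is shown because one gene of each pair had reads in every library and the other had none: S100a8 and S100a9, neighbours on chromosome 3 with 22596 bases between them, and Camp and Ngp, related genes on chromosome 9. Each stretch is from RefSeq, build GRCm38.p6, 5′ to 3′ on the gene's strand, from 250 bases before the RefSeq start to the last base outside the annotated gene. Capitals mark matches to TTGCNNAA or its reverse complement TTNNGCAA, letters that fit the binding site of C/EBP factors, which drive granulocyte genes.

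S100a8 (chr3:90668821-90668977, plus strand): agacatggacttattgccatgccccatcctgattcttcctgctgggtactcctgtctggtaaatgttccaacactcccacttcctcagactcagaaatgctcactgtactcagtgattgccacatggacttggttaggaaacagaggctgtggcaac
S100a9 (chr3:90695722-90695971, minus strand): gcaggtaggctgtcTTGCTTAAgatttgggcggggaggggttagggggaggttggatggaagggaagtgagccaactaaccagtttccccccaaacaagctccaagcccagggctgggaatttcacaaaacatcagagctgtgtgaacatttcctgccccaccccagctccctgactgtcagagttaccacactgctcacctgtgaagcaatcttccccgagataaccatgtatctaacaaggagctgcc
Camp (chr9:109849618-109849706, minus strand): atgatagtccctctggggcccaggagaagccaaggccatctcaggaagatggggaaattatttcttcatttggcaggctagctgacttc
Ngp (chr9:110419558-110419746, plus strand): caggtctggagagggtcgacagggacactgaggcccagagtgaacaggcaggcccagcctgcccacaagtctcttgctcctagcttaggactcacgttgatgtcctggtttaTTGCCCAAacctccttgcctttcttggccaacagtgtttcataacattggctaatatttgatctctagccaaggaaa

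Over the full 250 bases before the RefSeq start, on either strand, the letters TTGCNNAA occurred for 4 of the 10 granule genes: Ngp (2 matches, of which 1 is in the stretch printed above), Ltf, Mmp8 and S100a9. They occurred in 9.58% of all 32544 distinct promoters of the same length. Of these 4 genes, Ngp, Ltf and S100a9 had no read in any library and Mmp8 had reads in all. The letters were not found for S100a8, Camp, Cd177 and Prtn3, which had reads in every library. They were also not found for Mpo, with reads in 5 libraries, or for Elane, with 1 read in all. The Prtn3 window lies inside the gene as GENCODE annotates it, and other windows lie partly inside theirs. The bases outside the annotated gene numbered 47 for Mpo, 89 for Camp, 157 for S100a8, 185 for Elane, 189 for Ngp and 229 for Ltf. The Ngp match 11 bases before the RefSeq start lies inside the annotated gene. The windows are thus not alike across the genes. AGAGGAAG, letters of the kind bound by ETS factors such as PU.1, occurred only for Mpo, with 2 matches, against 3.68% of promoters. A match of letters is a description of the window and not a bound site.

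In the pairs set against each other here, 1 gene was read in every library and the other hardly or not at all. The pairs were chosen with results of these data known, so the contrast is a description and not a test. Mmp8 and Ltf were paired as specific granule genes and lie apart on chromosome 9 (starts 7558456 and 111019271). S100a8 had 79 counts over all 6 libraries and S100a9 had 0; per base of gene length S100a9 was at least 19.8-fold lower, taking 3 counts over the 6 libraries as the most that a count of 0 allows. Ngp, with 0 counts, was at least 62.3-fold lower per base than Camp, with 116. Ltf, with 0 counts, was at least 181-fold lower per base than Mmp8, with 381. Among the proteases, which lie side by side on chromosome 10 with 3072 bases between them, Prtn3 (83 counts) was 47.2-fold higher per base than Elane (1 count), with an exact 95% interval of 8.23 to 1885. The at-least values allow for counting error in the undetected gene only, and take the count of the other gene as exact. The interval for Prtn3 over Elane covers counting error in both counts. No other variation is covered. No 50-base stretch of S100a8, S100a9, Camp, Ngp, Ltf, Elane or Mmp8 transcripts occurs in a transcript of another gene in GENCODE M21. Near matches and sequence outside annotated transcripts were not searched.

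Of the primary granule genes, Prtn3 was read in every library, Mpo in 5 of 6 and Elane in 1. Elane (ENSMUSG00000020125), neutrophil elastase, lies on chromosome 10 of GRCm38 from 79886247 to 79888215, plus strand, and its single read was in control replicate 2. Mpo (ENSMUSG00000009350), myeloperoxidase, on chromosome 11 from 87793581 to 87804413, plus strand, gave 1, 0 and 7 reads in control replicates 1 to 3 and 7, 6 and 6 reads in Ni replicates 1 to 3. Control replicates 1 and 2 were thus below the other 4 libraries, and control replicate 3 was level with the Ni libraries, so the groups overlapped. At 0.0458 ± 0.0660 FPKM (SD, n = 3) in controls and 0.102 ± 0.00745 FPKM (SD, n = 3) in Ni, Mpo did not pass the filter on low counts and was not tested. Of its 3424 exon bases, 512 lie under exons of the antisense gene Gm11505, which had no count. Of the 50-base stretches of Mpo transcripts, 9.46% are also found in Gm11505 or in other genes. Counts of those other genes were not examined.

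Prtn3 (ENSMUSG00000057729), proteinase 3, on chromosome 10 from 79874476 to 79883174, plus strand, was the only primary granule gene with reads in every library. Control replicates 1 to 3 gave 14, 9 and 18 reads, and Ni replicates 1 to 3 gave 13, 22 and 7 reads. The Ni libraries held both its highest and its lowest value, and the groups overlapped, at 0.460 ± 0.147 FPKM in controls and 0.451 ± 0.253 FPKM in Ni (SD, n = 3 each). Of its 1732 exon bases, 159 are shared with Plppr3 on the opposite strand, which had from 92 to 140 counts, and whether reads were assigned by strand is not stated.

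Of the specific granule genes, Mmp8 had the most reads. Mmp8 (ENSMUSG00000005800), which cleaves fibrillar collagens, lies on chromosome 9 from 7558456 to 7568485, plus strand. Its reads numbered 60, 28 and 105 across the 3 controls, and 70, 52 and 66 across the Ni libraries. The controls held both extremes, and all 3 Ni libraries lay between them, at 1.55 ± 0.942 FPKM in controls and 1.43 ± 0.181 FPKM in Ni (SD, n = 3 each). Mmp8 made up from 31.8% to 56.1% of the reads on the 10 genes in a library.

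Camp (ENSMUSG00000038357), on chromosome 9 from 109847379 to 109849617, minus strand, was the most even of the tested granule genes. Its reads numbered 17, 15 and 23 across the 3 controls, and 23, 20 and 18 across the Ni libraries. The groups overlapped throughout, at 1.42 ± 0.332 FPKM in controls and 1.48 ± 0.169 FPKM in Ni (SD, n = 3 each).

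Cd177 (ENSMUSG00000052212), a GPI-anchored protein of the neutrophil surface and specific granules, lies on chromosome 7 from 24743983 to 24760311, minus strand. Reads on it came to 37, 25 and 11 in control replicates 1 to 3 against 9, 8 and 19 in Ni replicates 1 to 3. Control replicates 1 and 2 stood above the other 4 libraries, while control replicate 3 lay below Ni replicate 3, so the groups overlapped. The level was 0.496 ± 0.243 FPKM in controls and 0.233 ± 0.117 FPKM in Ni (SD, n = 3 each). Of the 50-base stretches of its transcripts, 5.51% are also found in BC049730 or Gm4763, which had 1 and 0 counts in all.

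Ngp (ENSMUSG00000032484; chromosome 9, 110419747 to 110423012, plus strand) and Ltf (ENSMUSG00000032496; chromosome 9, 111019271 to 111042767, plus strand) had no read. At these depths 0 counts allowed up to 0.133 to 0.154 FPKM for Ngp and up to 0.0471 to 0.0544 FPKM for Ltf in a library. Lower levels were not detectable at this depth.

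Of the calprotectin genes only S100a8 was detected. S100a8 (ENSMUSG00000056054; chromosome 3, 90668978 to 90670035, plus strand) gave 10, 10 and 23 reads in control replicates 1 to 3, and 10, 13 and 13 reads in Ni replicates 1 to 3. Control replicate 3 stood above the other 5 libraries, which lay close together, and the group levels were 1.22 ± 0.653 FPKM in controls and 0.959 ± 0.156 FPKM in Ni (SD, n = 3 each). S100a9 (ENSMUSG00000056071; chromosome 3, 90692632 to 90695721, minus strand) had no read, where 0 counts allowed up to 0.311 to 0.359 FPKM in a library. The lowest S100a8 value in any library was 0.780 FPKM.

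Per length, the order of mean levels over the 6 libraries was Mmp8 at 1.49 FPKM, Camp at 1.45, S100a8 at 1.09, Prtn3 at 0.456, Cd177 at 0.365, Mpo at 0.0740 and Elane at 0.0106 FPKM, with Ngp, Ltf and S100a9 at 0. The ranges over libraries of Mmp8 (0.722 to 2.57 FPKM), Camp (1.22 to 1.80 FPKM) and S100a8 (0.780 to 1.97 FPKM) overlapped, as did those of Prtn3 (0.222 to 0.723 FPKM) and Cd177 (0.160 to 0.707 FPKM). Mpo, with at most 0.121 FPKM, lay below every library of the genes above it. Even Mmp8 was under the median of 3.31 FPKM of the 16455 protein-coding genes with a count, of which 38.4% had a lower mean. No count was found for 3 of the 10 granule genes, and for 25.4% of all 22046 protein-coding genes.

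The design asks whether 0.1 μM Ni altered these genes during osteogenic culture. Of the 10 genes, 5 passed the filter on low counts and were tested among 14624 genes with edgeR's quasi-likelihood test and Benjamini-Hochberg adjustment: Prtn3, Camp, Cd177, Mmp8 and S100a8. None passed an adjusted p of 0.05, where 0% of all tested genes did, and none passed an unadjusted p of 0.05, where 13.4% of all tested genes did. DESeq2 likewise called none of them. For none of the 5 did the 3 Ni libraries lie wholly above or below the controls, against 14.7% of all tested genes. Their median log2 fold change (Ni over control) was -0.12, with 1 positive and 4 negative. Over all tested genes the median was -0.01, with 7028 positive and 7596 negative.

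Cd177 had the widest difference, a log2 fold change of -1.09 (standard error 0.52, 95% interval -2.25 to 0.07, edgeR's adjusted p = 0.391), with 2 of 3 Ni libraries below every control. Without control replicate 3 the log2 fold change of Cd177 was -1.42 with an adjusted p of 0.0713. In that fit 15.2% of 15044 genes passed an adjusted p of 0.05 and none of the granule genes did. Over all alternatives the adjusted p of Cd177 ranged from 0.0713 to 0.845.

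The other 4 genes had smaller log2 fold changes, with wide intervals. S100a8 was at -0.34 (95% interval -1.43 to 0.75, edgeR's adjusted p = 0.799). Mmp8 was at -0.12 (95% interval -1.01 to 0.77, edgeR's adjusted p = 0.924). Prtn3 was at -0.04 and Camp at 0.06, with 95% intervals of -1.19 to 1.11 and -0.75 to 0.87. At these counts the intervals of Camp, Mmp8, Prtn3 and S100a8 leave room for changes of 0.75 or more on the log2 scale in either direction. Without control replicate 3 the sign turned for S100a8, at 0.19, Mmp8, at 0.46, and Prtn3, at 0.23.

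**Figure D2:**
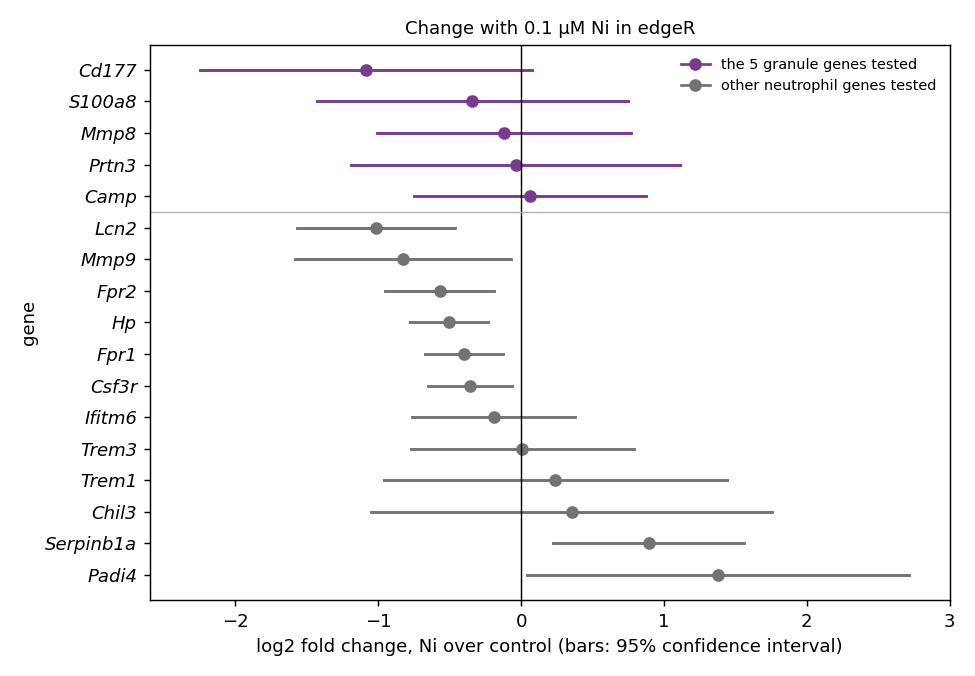
Log2 fold change of Ni over control from edgeR (points, horizontal axis) with 95% confidence intervals (bars) for the 5 granule genes that were tested and for 12 other neutrophil genes. All 5 granule intervals cross 0, that of Cd177 from -2.25 to 0.07; the interval of Hp runs from -0.78 to -0.23.

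The summed level of the 10 genes was 7.60, 5.54 and 11.2 CPM (scaled by TMM) in control replicates 1 to 3 and 7.17, 6.97 and 7.13 CPM in Ni replicates 1 to 3. The 3 Ni libraries lay within the range of the controls, and the log2 ratio of the means was -0.20, or 0.11 without control replicate 3. Early and late granule genes were then set against each other within each library. The summed counts of the specific granule genes were 114, 68 and 139 in the controls and 102, 80 and 103 in the Ni libraries, beside 15, 10 and 25 and then 20, 28 and 13 for the primary granule genes. The log2 ratio of specific over primary counts was 2.68 ± 0.218 in controls and 2.25 ± 0.723 in Ni (SD, n = 3 each), a difference of -0.43 that was smaller than the spread of the Ni libraries. Without Ni replicate 2 the difference was -0.05. The ratio rested on Mmp8, Camp and Cd177 against Prtn3 and Mpo, since Ngp and Ltf had no read and Elane had 1.

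Of the 5 tested genes, 3 were highest in control replicate 3 and the other 2 elsewhere. Relative to each gene's own mean over the 6 libraries, Mmp8, S100a8 and Camp were highest in control replicate 3, at 0.87, 0.83 and 0.30 on the log2 CPM scale. Prtn3 was at 0.47 and Cd177 at -0.40 there. Cd177 stood highest in control replicates 1 and 2, at 1.07 and 0.73, where Mmp8 was at -0.05 and -0.90. Prtn3 was highest in Ni replicate 2, at 0.68, and lowest in Ni replicate 3, at -0.78. Averaged over the 5 genes, the deviation was 0.42 in control replicate 3 and between -0.18 and 0.10 in the other libraries. Over the 6 libraries the tested genes with the most similar pattern to that average, by Pearson's r, were Tfrc at 0.967, Gm20712 at 0.963, Klf7 at 0.962, Ccl2 at 0.957 and Slfn8 at 0.954. These are the top 5 of all tested genes outside the gene lists and are given as a description.

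**Figure D3:**
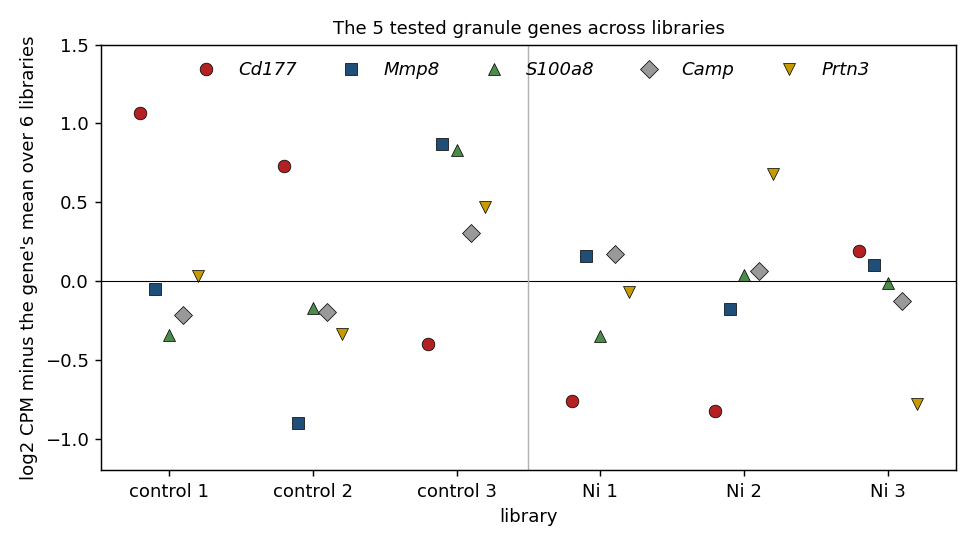
Log2 CPM of the 5 tested granule genes in each library, minus the gene's mean over the 6 libraries (vertical axis), for control replicates 1 to 3 and Ni replicates 1 to 3 (horizontal axis). Mmp8 and S100a8 reach 0.87 and 0.83 in control replicate 3, while Cd177 reaches 1.07 and 0.73 in control replicates 1 and 2.

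Marker lists of other cells also differed between libraries, and not all of them followed these patterns. In control replicates 1 and 2, where Cd177 was highest, the 7 B cell genes summed to 101 and 122 FPKM, against 35.6 to 50.0 FPKM in the other 4 libraries, and the 5 T and NK cell genes to 2.98 and 2.20 FPKM, against 1.09 to 1.49 FPKM. Ms4a1 and Igll1 of the former list and Cd3e and Cd3d of the latter had no read, and Ighm (25.1 to 92.6 FPKM) and Cd79b led the B cell sum. In control replicate 3, where Mmp8 and S100a8 were highest, the 15 macrophage genes summed to 21860 FPKM, against 17950 to 18920 FPKM in the other libraries, but the list did not move as one. Lyz2 was at 11360 FPKM there, against 7255 to 9531 FPKM in the other libraries, whereas Adgre1 (F4/80) was at 781 FPKM, below the 1144 and 1159 FPKM of control replicates 1 and 2. The 5 monocyte genes, led by F13a1 (coagulation factor XIII A), summed to 739 FPKM there, against 397 and 443 FPKM in the other controls and 605 to 706 FPKM in Ni. The 10 stromal genes, led by Col1a1 and Col1a2, summed to 1627 to 2860 FPKM in controls and 3517 to 4462 FPKM in Ni, without overlap. The part of any of these cells in the granule gene values was not tested.

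Other neutrophil genes were split: many were at or near 0, while others, several of which macrophages also express, were abundant. Of 32 further genes, 10 had no read (Ms4a3, Bpi, Fcnb, Itgb2l, Retnlg, Stfa1, Stfa2, Stfa2l1, BC100530 and Mrgpra2b), and 16, these included, had 5 or fewer counts over all libraries. Ly6g, the surface antigen by which mouse neutrophils are usually recognised, had 1 count in all, Cxcr2, the chemokine receptor of mature neutrophils, had 7, and the primary granule protease Ctsg had 4. By contrast Hp (haptoglobin) reached 287 to 459 FPKM, and the formyl peptide receptors Fpr1 and Fpr2, which macrophages also carry, reached 163 to 241 and 57.6 to 112 FPKM. Csf3r, the G-CSF receptor, was at 14.2 to 21.3 FPKM, and Mmp9, a gelatinase that osteoclasts also make, at 7.06 to 24.2 FPKM. In all, 11 of the 32 genes averaged above 1 FPKM. Among them were Ifitm6 (5.23 FPKM), Trem3 (2.985 FPKM), Trem1 (1.84 FPKM) and Chil3 (1.09 FPKM), which had reads in every library.

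Of these 32 genes 12 were tested, with no adjusted p under 0.05 and a smallest of 0.241 in edgeR. At an unadjusted p of 0.05, 6 were lower in Ni (Lcn2, Mmp9, Fpr2, Hp, Fpr1 and Csf3r), where 5.83% of all tested genes were, and 2 were higher (Serpinb1a and Padi4), where 7.59% were. The median log2 fold change of the 12 was -0.28. In CPM, every Ni library lay below every control for 4 of them (Lcn2, Hp, Fpr1 and Fpr2) and above for 2 (Padi4 and Serpinb1a). Of all tested genes, 14.7% had groups that did not overlap. Lcn2, a siderophore-binding protein that osteoblasts and macrophages also make, gave 113, 86 and 71 reads across the 3 controls and 55, 48 and 38 across the Ni libraries, so that every Ni library was below every control. Its log2 fold change was -1.01 (standard error 0.25, edgeR's adjusted p = 0.241). Hp was at -0.50 (standard error 0.12, adjusted p = 0.241) and also had every Ni library below the controls; the adjusted p ranged from 0.00152 to 0.778 over the alternatives for Hp and from 0.00872 to 0.772 for Lcn2, the lowest being without control replicate 3 for both. The other 4 genes that were lower in Ni at that threshold had log2 fold changes of -0.83 (Mmp9), -0.57 (Fpr2), -0.40 (Fpr1) and -0.36 (Csf3r). Their lowest adjusted p over the alternatives was 0.0685 for Mmp9 (DESeq2), 0.00021 for Fpr2 (no filter), and 0.00137 for Fpr1 and 0.00425 for Csf3r (without control replicate 3), and the highest was 0.831 for each of the 4. The 8 genes at an unadjusted p under 0.05 were 4 without Ni replicate 1 or without Ni replicate 3, and 5 without control replicate 2. Chil3 and Trem1 had log2 fold changes of 0.35 and 0.24 in the main fit. Without control replicate 3 they were at 1.70 and 1.12, with edgeR's adjusted p at 0.017 and 0.0267. That fit left out the control closest to the Ni libraries, and in it 15.2% of 15044 genes passed an adjusted p of 0.05. Of the 15 macrophage genes, all tested, 11 had a negative log2 fold change, with a median of -0.14. Of all 14624 tested genes 7596 were negative, with a median of -0.01. Aif1 (-0.98), Tyrobp (-0.45) and Fcer1g (-0.45) were lower in Ni at an unadjusted p under 0.05, and none of the 15 had an adjusted p under 0.05 in edgeR. The part of macrophages in the values of the other neutrophil genes was not tested.

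Padi4, the enzyme that citrullinates histones in neutrophil traps, had a difference of the opposite sign, with 14, 5 and 45 reads across the 3 controls and 71, 56 and 50 across the Ni libraries. Its log2 fold change was 1.38 (standard error 0.59, edgeR's adjusted p = 0.367). Without control replicate 3 it was 2.57 (edgeR's adjusted p = 0.00156), in the fit where 15.2% of 15044 genes passed an adjusted p of 0.05. Over the alternatives the adjusted p of Padi4 ranged from 0.00156 to 0.831. Serpinb1a, an inhibitor of the neutrophil serine proteases, was at 0.89 (standard error 0.30, adjusted p = 0.309). Each had every Ni library above every control. Both were low, with means of 0.466 and 1.07 FPKM.

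**Figure D4:**
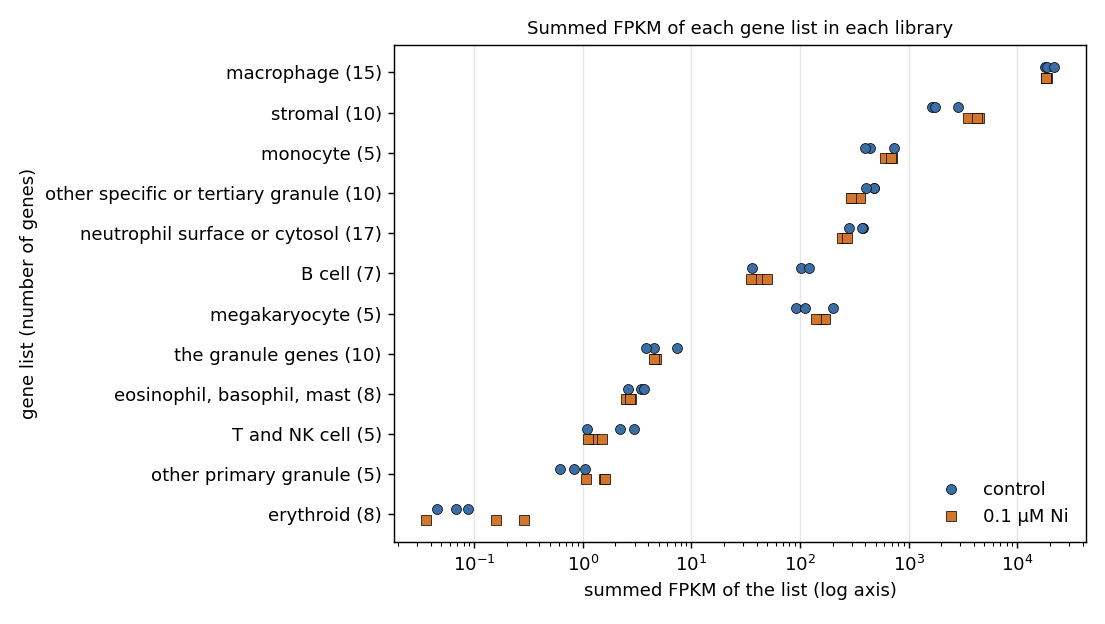
Summed FPKM of each gene list (horizontal axis, log scale) in the 3 control libraries (circles) and the 3 Ni libraries (squares), with the number of genes in brackets. The granule genes sum to 3.80 to 7.31 FPKM and the macrophage genes to 17950 to 21860 FPKM.

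Of 10 transcription factors of the granulocyte line, 7 were tested. Cebpe, the C/EBP factor on which specific granule genes depend, had 1 count in all 6 libraries, and Gfi1, a repressor needed for neutrophil maturation, had 6. The factors that macrophages share were high: Cebpa was at 106 to 130 FPKM and Spi1 (PU.1) at 108 to 218 FPKM, and Cebpd was the next most abundant by reads, with a mean of 204 CPM. None of the tested factors had an adjusted p under 0.05; Klf4, a factor of monocyte differentiation, was at a log2 fold change of 0.59 (edgeR's adjusted p = 0.262, range over the alternatives 0.000159 to 0.815), the only one at an unadjusted p under 0.05. Its values ran from 8.83 to 14.0 FPKM in controls and from 16.4 to 16.9 FPKM in Ni, without overlap. Groups did not overlap for 14.7% of all tested genes. Without control replicate 3 Klf4 was at 0.81 (edgeR's adjusted p = 0.000479), in the fit where 15.2% of 15044 genes passed an adjusted p of 0.05. Spi1, at -0.44 in the main fit (adjusted p = 0.377), was then at -0.60 (adjusted p = 0.0378).

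Marker lists of other marrow blood lineages differed in level. The erythroid list, the eosinophil, basophil and mast cell list and the T and NK cell list were also low. The B cell and monocyte lists, given above, stood higher. The 8 erythroid genes summed to at most 0.290 FPKM, with all 4 globin genes at 0 and Klf1 and Alas2 as their leading genes. The 8 eosinophil, basophil and mast cell genes summed to 2.52 to 3.70 FPKM, most of it Siglecf (1.96 to 3.43 FPKM), with Prg2, Ms4a2 and Fcer1a at 0 and Mcpt8 at no more than 0.544 FPKM. Of the T and NK cell genes Klrb1c led, at 1.02 to 2.55 FPKM, followed by Nkg7 with 10 counts in all. The megakaryocyte list stood higher, at 91.7 to 203 FPKM, through Pf4 (90.1 to 202 FPKM), which macrophages also express, whereas Itga2b averaged 0.263 FPKM.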

How the data were processed

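RNA of 3 control and 3 Ni cultures was sequenced from a NEBNext Ultra library. The authors deposited raw counts of reads per gene and FPKM values for 54532 genes, with an annotation table (build GRCm38 per the labels); aligner, counter and strand setting are not given in the sources used here. The deposited FPKM equal the counts divided by gene length and one factor per library, with deviations of at most 3.29e-07. The annotation table gave gene names, coordinates and lengths, and all 10 granule genes had the coordinates of GENCODE M21.

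Genes were kept by filterByExpr (14624 genes), normalized by TMM and tested with edgeR 4.0.16 (glmQLFit, robust; glmQLFTest; Benjamini-Hochberg) in R 4.3.3. DESeq2 1.42.0, and limma 3.58.1 on log2(FPKM + 1) or log2(FPKM + 0.1), served as alternatives, with DESeq2's size factors, no filter, a replicate block and each library left out. On simulated counts without an outlying library, edgeR, DESeq2 and limma on log2(FPKM + 0.1) were also run. The other settings were not tried there. The standard error is the unshrunk coefficient over the root of F. Log2 CPM used a prior count of 2, and the specific over primary ratio added 0.5 to both sums. Library depth was 16101033 to 18642504 counts; a count of 0 was taken to allow 3. Chi-square per degree of freedom was 4.37 to 43.6 within groups, so none were duplicates, and 9.96 to 68.9 between groups, lowest for control replicate 3 with Ni. RefSeq promoters matched all 10 genes.

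The granule genes, the further gene lists and the comparisons were chosen with earlier results of these data known, and the motifs after the values had been seen. Named genes were the 10 granule genes; of the other neutrophil and transcription factor lists, at least the 3 highest by mean CPM and those at an unadjusted p under 0.05, with any other allowed; the 2 highest by mean CPM of each marker list; and the 5 genes most like the average pattern. Marker genes with no read, and Aif1, Tyrobp and Fcer1g, were named after their values were seen. One marker gene is not reported here.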

Additional observations from a re-analysis of the deposited data

How the results depend on the processing

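No granule gene passed an adjusted p of 0.05 in edgeR or under any of the 12 alternatives. At an unadjusted p under 0.05 edgeR called 0 of them, against 1 when genes were not filtered, and this number ranged from 0 to 1 with each library left out, the gene being Cd177 each time. Cd177 kept its negative sign throughout. Mmp8, at -0.12, had a log2 fold change of 0.0486 on log2(FPKM + 0.1) and of 0.0077 with the replicate block. With each library left out, the log2 fold change ranged from -0.59 to 0.19 for S100a8, -0.0399 to 0.28 for Camp, -0.55 to 0.29 for Prtn3 and -0.45 to 0.46 for Mmp8, so no direction can be given for these 4 genes.

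Of all tested genes edgeR called 0 after adjustment and 1963 before it. After adjustment the number was 1027 with no filter, 256 with DESeq2 and 315 with the replicate block; the cause was not tested. With each library left out it ranged from 0 to 2283, the latter without control replicate 3. Before adjustment it was 3057 with no filter and ranged from 868 to 4125 with each library left out. Of the other neutrophil genes, 8 at an unadjusted p under 0.05, that range was 4 to 9, with 4 without Ni replicate 1 or Ni replicate 3, 5 without control replicate 2 and 9 without control replicate 3. Deviations of same-numbered libraries from their group means correlated at 0.01, 0.26 and 0.14. In each group 2 of 3 libraries correlated best with their own number. These values do not settle whether the numbers pair the cultures, and the main fit took the cultures as unpaired. No granule gene exceeded 105 counts in a library.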
